A study of Mus musculus with 6 samples.

Results

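The mouse Hox clusters are 4 tight rows of genes, Hoxa, Hoxb, Hoxc and Hoxd, and their members were taken here as every protein-coding gene of the mm10 annotation whose symbol is Hoxa, Hoxb, Hoxc or Hoxd followed by a number. This rule found 39 of 21911 protein-coding genes, 11 in Hoxa, 10 in Hoxb, 9 in Hoxc and 9 in Hoxd. The data are ATAC-seq maps of open chromatin, made by letting the transposase Tn5 cut DNA wherever it is accessible, and they come from palatal shelves (the paired outgrowths that form the roof of the mouth) of embryonic day 14.5 mice of the C57BL/6 strain. The epithelium was peeled off after trypsin treatment, and what was left of the shelf, largely mesenchyme, was collected from the same dissections, with 3 libraries for each tissue and no other treatment or genotype. Both tissues are mixtures (the epithelium holds the surface periderm and the basal layer together, and the mesenchyme is whatever remained), each library is labelled a separate biological replicate from pooled shelves, and the sources differ on how many embryos went into one. Deposited are positions of called peaks per library without read counts or scores, so a peak here is either present or absent and has a width.

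Hox genes encode homeodomain transcription factors that give positional identity along the body axis and the limbs. Within a cluster the order of the genes on the chromosome follows the order in which they are used along the body, from paralog group 1 at the anterior end to paralog group 13 at the posterior end. Genes of one paralog group in different clusters descend from one ancestral gene. The cranial neural crest that fills the upper jaw and the palatal shelves comes from territory largely anterior to the Hox domains. This crest is known to develop largely without Hox expression. Silent Hox clusters are a textbook target of Polycomb repression over CpG-rich DNA.

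The lists of the 6 libraries held 270003, 349322 and 296695 peaks in epithelium and 295141, 341741 and 315468 in mesenchyme, with median widths of 331 to 344 bp. The number of peaks per gene was therefore scaled to the mean list length before tissues were compared, since the number of reads behind each list is unknown. Of 13 epithelial marker genes, 12 had a positive difference (epithelium minus mesenchyme) and 2 passed the test, Trp63 with 25, 26 and 15 peaks in epithelium against 4, 12 and 5 in mesenchyme, and Dsp with 16, 15 and 12 against 5, 5 and 4 (limma, adjusted p = 0.0236 for each). Neither call held without scaling, at equal list lengths, with a replicate block or without epithelium replicate 2, where 0 genes of any kind passed (1913 to 2261 at an unadjusted p under 0.05). The 13 epithelial markers together held 211.3 to 241.04 scaled peaks per epithelium library and 145.1 to 166.7 per mesenchyme library. None of 13 mesenchymal markers passed and 5 had a positive difference (median log2 difference -0.06), with a summed level of 189.0 to 253.7 scaled peaks in epithelium and 217.8 to 234.2 in mesenchyme. The palate mesenchyme regulator Prrx1 had 3, 10 and 6 peaks in epithelium against 14, 14 and 16 in mesenchyme (adjusted p = 0.110), and Lum, a matrix proteoglycan, had 0, 3 and 1 against 4, 4 and 5 (adjusted p = 0.197). Of the blood markers Tyrobp had 2, 2 and 3 against 8, 7 and 3 (adjusted p = 0.321). Endothelial, blood, muscle and nerve markers had summed levels whose ranges overlapped between tissues, no gene past the test, and no gene at 0 in all libraries. The part of these cells in the results on Hox genes was not tested.

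Peaks were dense in the clusters in both tissues, and all 4 start sites of paralog group 13, the posterior end of the clusters, held a peak in every library. A start site lay inside a peak in all 6 libraries for 11 of the 39 Hox genes (28.2%), against 59.7% of all protein-coding genes, and in none of the 6 for 6 Hox genes (15.4%), against 22.9% of all. Among them were Hoxb1, Hoxd1, Hoxa7, Hoxc8, Hoxd9, Hoxd11, Hoxa13, Hoxb13, Hoxc13 and Hoxd13. They took in all 4 members of paralog group 13 (24 of 24 pairs of gene and library), and Hoxb1 and Hoxd1 at the anterior end. In groups 2 to 12 the share ran from 11.1% of pairs (group 3) to 72.2% (group 10), with 2 of 12 pairs in group 2 and 3 of 18 in group 6.

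**Figure D1:**
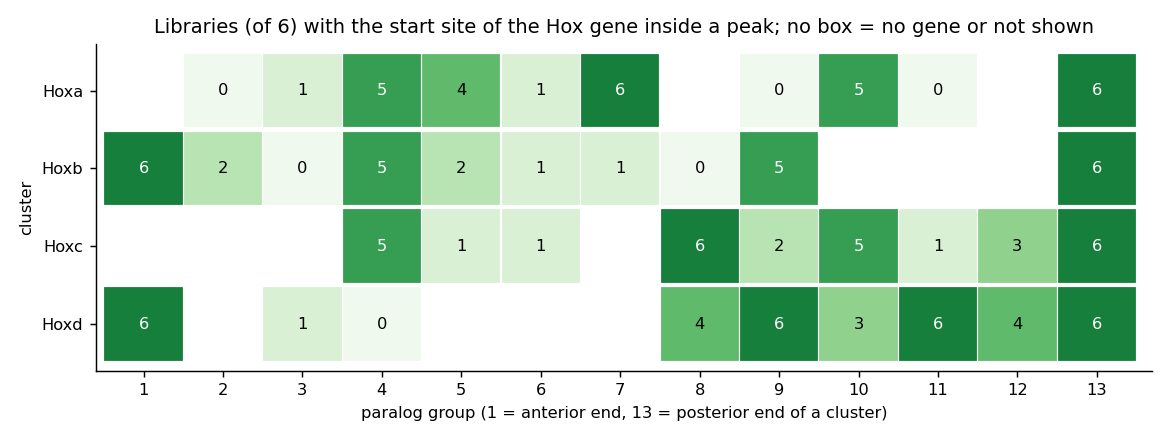
Number of libraries, of 6, in which the start site of a Hox gene lay inside a peak, by cluster (rows) and paralog group (columns); empty positions have no gene or are not shown. Group 13 reads 6 in all 4 clusters, as do Hoxb1 and Hoxd1, while the 6 genes at 0 lie between the ends.

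The promoter sequences of 4 genes are shown because they stand at the extremes of this pattern: the start site lay inside a peak in all 6 libraries for Hoxa13, which patterns the digits and the urogenital tract, and for Hoxd1, a gene of sensory neurons, and in none for Hoxa11, which patterns the forearm and the uterus, and for Hoxa2, which gives the second arch its identity. Each is the 250 bases before the RefSeq start on the strand of the gene in the GRCm38.p6 assembly (mm10), 5′ to 3′, with CpG dinucleotides in capitals.
Hoxa13 (chr6:52260881-52261130, minus strand): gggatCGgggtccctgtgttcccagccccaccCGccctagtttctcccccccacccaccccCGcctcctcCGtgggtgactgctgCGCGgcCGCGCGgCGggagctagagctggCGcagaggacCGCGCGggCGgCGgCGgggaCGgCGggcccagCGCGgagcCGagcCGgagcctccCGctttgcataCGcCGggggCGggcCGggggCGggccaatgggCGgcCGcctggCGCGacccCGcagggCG
Hoxd1 (chr2:74762730-74762979, plus strand): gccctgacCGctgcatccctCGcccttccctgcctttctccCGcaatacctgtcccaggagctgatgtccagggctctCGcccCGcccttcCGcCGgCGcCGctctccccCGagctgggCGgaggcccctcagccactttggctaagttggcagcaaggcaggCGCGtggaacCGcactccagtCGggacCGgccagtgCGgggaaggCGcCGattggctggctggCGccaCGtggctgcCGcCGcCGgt
Hoxa11 (chr6:52245811-52246060, minus strand): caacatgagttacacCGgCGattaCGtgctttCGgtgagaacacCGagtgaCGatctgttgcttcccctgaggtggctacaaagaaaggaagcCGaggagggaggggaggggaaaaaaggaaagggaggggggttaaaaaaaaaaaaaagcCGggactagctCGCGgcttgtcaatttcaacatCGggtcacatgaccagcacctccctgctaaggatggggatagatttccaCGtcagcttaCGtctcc
Hoxa2 (chr6:52164832-52165081, minus strand): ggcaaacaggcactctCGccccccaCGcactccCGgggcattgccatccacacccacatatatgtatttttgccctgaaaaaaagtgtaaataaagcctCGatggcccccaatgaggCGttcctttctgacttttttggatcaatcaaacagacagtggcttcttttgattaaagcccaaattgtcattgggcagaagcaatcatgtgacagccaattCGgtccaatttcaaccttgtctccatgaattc

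These 250 bases held 35 CpG in Hoxa13 and 24 in Hoxd1, with a GC content of 80% and 71.6%. They held 13 CpG in Hoxa11 and 6 in Hoxa2, with a GC content of 52% and 46.4%. RefSeq promoters of 300 bases were matched by symbol for 22 of the 39 members. Over these 22 the median GC content was 58.7% and 54.5% had an observed to expected CpG ratio above 0.6, against 57% and 50.1% over 16522 promoters. Few CpG did not go with an absent peak in every case: Hoxb1, a hindbrain gene, had 10 CpG in these 300 bases and a peak over its start in 6 libraries, whereas Hoxb8, which has a role in microglia and the spinal cord, had 13 and a peak in none. Hoxa9 and Hoxd4, also with a peak in none, had 4 each. The CpG ratio of Hoxa11, 0.787, was close to that of Hoxd1, 0.805, while that of Hoxa2 was 0.589. The Hoxa11 bases shown also run into a region with a peak in all 6 libraries (chr6:52245944-52246935). The letters TGATNNAT, a site bound by HOX with PBX proteins, searched on both strands, were found in 4 of the 22 promoters (18.2%, against 7.37% of all), those of Hoxa2, Hoxb1, Hoxb8 and Hoxd11. The other motifs searched were not above the share over all promoters. TTTATNG, a site of posterior HOX proteins, was found in 2 (9.09%, against 9.94%), and TAATTA, the homeobox core, in 1 (4.55%, against 4.61%). The core of the CTCF site and the retinoic acid response elements were found in 0.

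At the 6 genes with no peak over the start in any library, a peak was often close by. The nearest peak edge was 25 to 288 bp from the Hoxa11 start and 117 to 405 bp from the Hoxa2 start over the 6 libraries. It was 13 to 1092 bp away at Hoxa9, a regulator of blood progenitors, and 315 to 1125 bp away at Hoxb8. It was farther at Hoxb3 (809 to 4170 bp) and at Hoxd4 (671 to 3826 bp), 2 genes of the hindbrain and neck. All 6 genes thus had a gap at the start, narrow in the first 2 and wide in the last 2. When a peak within 500 bp of the start was counted, 26 of 39 Hox genes (66.7%) had one in all 6 libraries, against 67.5% of all genes, and only Hoxb3 and Hoxd4 (5.13%, against 17.4%) had one in none. The annotation bears on this count: the principal start of Hoxa3 lies between Hoxa6 and Hoxa7, and that of Hoxd3 lies between Hoxd8 and Hoxd4, away from the places these genes have in the order of their groups. With any annotated transcript start allowed, 15 Hox genes (38.5%, against 66.2% of all) had a start inside a peak in all 6 libraries, and Hoxa2 and Hoxa11 alone had none (5.13%, against 19.5% of all).

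The profile around the starts showed the same displacement. At the start site itself 54.7% of the pairs of Hox gene and library were inside a peak, against 68.2% over all genes. The share at Hox genes was highest 400 bp into the gene, at 72.2%, where over all genes it was highest at 100 bp, at 68.7%. It was still 43.2% at 1300 bp into Hox genes, against 23.1% over all genes. By tissue the highest point was 71.8% at 500 bp in epithelium and 74.4% at 400 bp in mesenchyme. The number of Hox starts inside a peak was 18, 25 and 19 in the epithelium libraries and 21, 24 and 21 in the mesenchyme libraries. The tissues overlapped in these counts, with means of 20.7 ± 3.79 and 22.0 ± 1.73 (SD, n = 3 each, exact two-sided permutation p = 0.6, where 3 against 3 cannot go below 0.1). Single starts differed more, and those named here were chosen after their values were seen. The start of Hoxd10, a gene of the hindlimb nerves, was inside a peak in 3 of 3 mesenchyme libraries and 0 of 3 epithelium libraries. Those of Hoxd12 and Hoxd8 were inside one in 3 epithelium libraries and 1 mesenchyme library each. These differences rest on short distances. In all 6 libraries a peak lay within 189 bp of the Hoxd10 start, 102 bp of the Hoxd12 start and 34 bp of the Hoxd8 start. The RefSeq start of Hoxd10, 33 bp from the one used, was inside a peak in epithelium replicate 3 as well as in all mesenchyme libraries. The peaks over the start were 1393 to 2831 bp wide at Hoxa13 and 1144 to 1495 bp at Hoxd13, against 260 to 1334 bp at Hoxb1, and at Hoxd11 they were 2374, 2215 and 2156 bp in epithelium and 2201, 2714 and 4351 bp in mesenchyme.

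**Figure D2:**
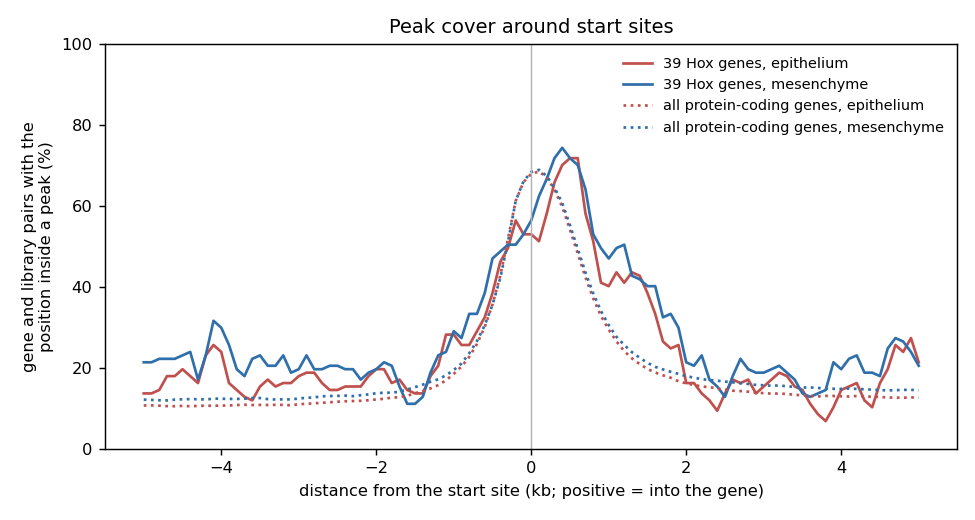
Share of gene and library pairs (%) with a position inside a peak, by distance from the start site in kb (positive values run into the gene), for 39 Hox genes (solid) and all protein-coding genes (dotted) in each tissue. The Hox curves were at 54.7% on average at the start and were highest at 500 bp into the gene in epithelium and 400 bp in mesenchyme, where the curves over all genes had begun to fall.

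Each peak with its midpoint in a gene body or within 20 kb of a start site was given once to the nearest start, and the members were then compared by the number they received. In all, 199, 234 and 183 peaks in epithelium and 197, 226 and 215 in mesenchyme went to Hox genes. The median Hox gene took 4.26 scaled peaks per 10 kb of the territory from which it could receive peaks, against 1.95 over all genes tested, while the number per gene was lower (median 4.67, against 6.83) because Hox territories are small (median 11.3 kb, against 37.3 kb). Inside the clusters there were 37.0 to 58.1 scaled peaks per 100 kb in any library, whereas the 4 chromosomes that carry them held 10.05 to 20.1.

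In the Hoxa cluster (chr6:52155590-52260880) Hoxa11 had the most peaks, with 7, 9 and 8 in epithelium and 9, 8 and 8 in mesenchyme. Hoxa3, a gene of the thymus and parathyroid, had the fewest, with 2, 3 and 1 against 2 in each mesenchyme library. The territory of Hoxa3 was only 2.3 kb, and its 8.65 scaled peaks per 10 kb were the highest density of the 39 genes. In the Hoxb cluster (chr11:96194316-96368256) Hoxb13, the outlying posterior gene of the tail and prostate, had the most, with 17, 14 and 12 in epithelium and 12, 14 and 12 in mesenchyme. Hoxb13 and Hoxa11 thus had libraries that overlapped between tissues. Hoxb7 had the fewest in its cluster, with 5, 3 and 3 against 4, 3 and 4. Per 10 kb, however, Hoxb7 had 7.07 scaled peaks (territory 5.3 kb), the highest in Hoxb, and Hoxb13 had 3.41 (territory 40 kb). In the Hoxc cluster (chr15:102921103-103036852) Hoxc9, a gene of thoracic identity, had the most, with 8, 9 and 10 against 7, 10 and 11. The fewest were shared by Hoxc10, a gene of the lumbar level, with 3, 5 and 4 against 5, 3 and 4, and Hoxc13, a gene of hair and nails. Hoxc13 had 1, 9 and 3 peaks in epithelium and 4, 3 and 4 in mesenchyme, the widest spread within a tissue in its cluster. In the Hoxd cluster (chr2:74668310-74765142) Hoxd1 had the most, with 6, 12 and 7 against 6, 8 and 11, and Hoxd13, a digit gene, had the fewest, with 1, 2 and 1 against 1, 2 and 2. Both Hoxd genes had a peak over the start in every library, so few peaks did not mean a closed start. By density Hoxc9 was also the highest in Hoxc (7.72 per 10 kb) and Hoxc13 the lowest (1.39), and Hoxd13 was the lowest in Hoxd (1.89).

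The genes without a peak over the start still received peaks. Hoxa2 had 4, 4 and 5 in epithelium and 4, 6 and 4 in mesenchyme. Hoxa9 had 6, 4 and 5 in both tissues. Hoxb8 had 3, 6 and 6 against 3, 5 and 5. In each of these 3 genes the tissues overlapped. Of the genes that hold a region found in mesenchyme alone (described further on), Hoxa5 had 4, 3 and 2 against 3, 4 and 4. Hoxa13 had 6, 9 and 3 against 5, 11 and 9. The tissues overlapped in these 2 genes, whereas at Hoxb9, which also holds such a region, they did not.

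**Figure D3:**
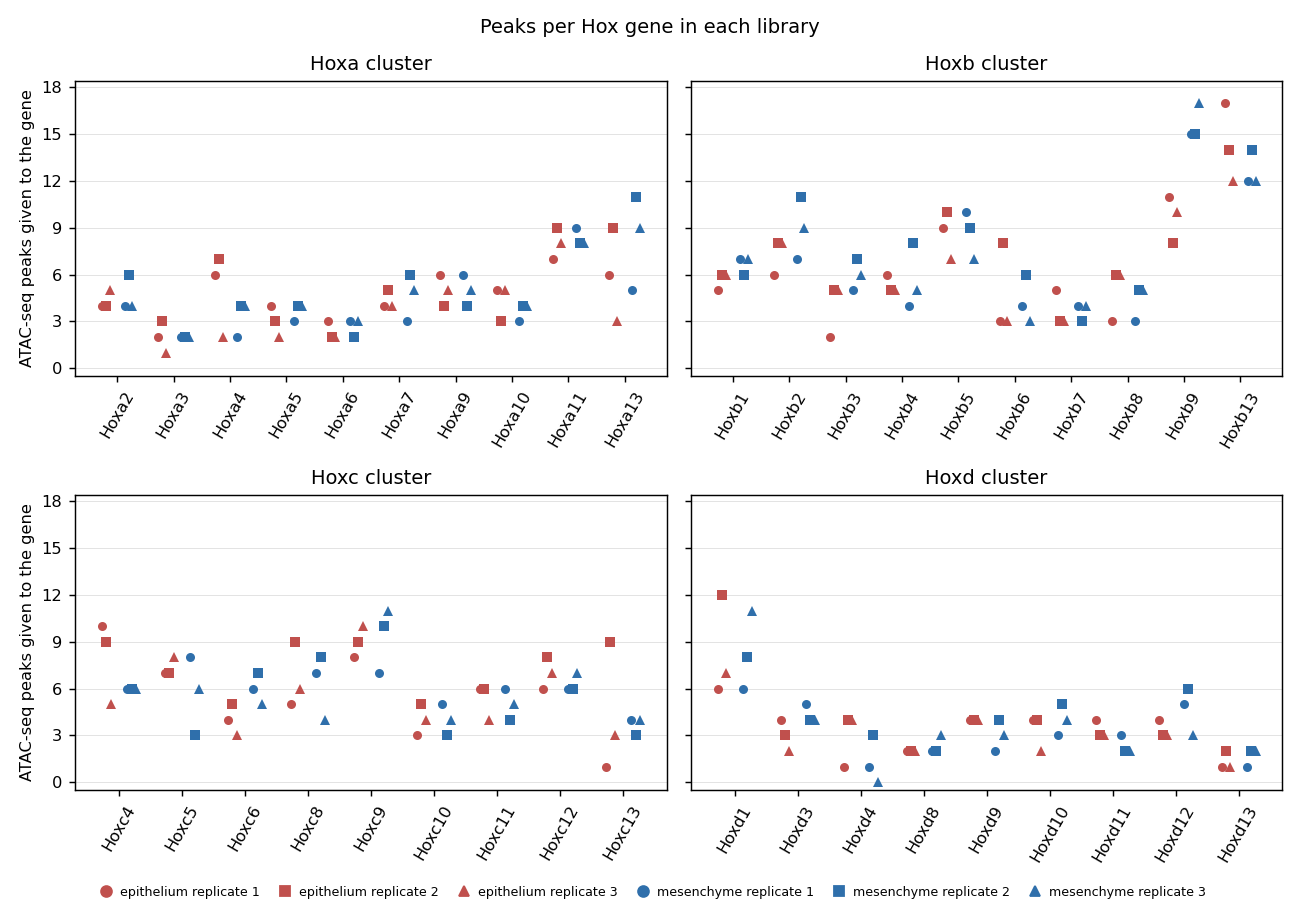
Number of ATAC-seq peaks given to the Hox genes shown in each library, before scaling to list length; red symbols are epithelium and blue symbols mesenchyme, with one symbol shape per replicate number. At Hoxb9 the mesenchyme libraries (15 to 17 peaks) lay above the epithelium libraries (8 to 11), while at most genes the symbols of both tissues intermingled.

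No Hox gene passed the test between tissues. All 39 were among the 19314 genes tested (mean of at least 1 peak per library), and 0 had an adjusted p under 0.05 (limma on log2 of scaled peaks plus 1, Benjamini-Hochberg over all genes tested), while 1 had an unadjusted p under 0.05. Over all genes tested 20 were higher in epithelium (0.104%) and 6 were higher in mesenchyme (0.0311%), so at these rates less than 1 call would fall among 39 genes, and the count of 0 is no result about the Hox genes. The median log2 difference was 0.03 over the Hox genes and -0.02 over all genes, with 21 of 39 positive. The 95% confidence interval of a single Hox gene reached 0.46 to 1.01 on either side of its log2 difference. Smaller differences could not be seen with these lists, and after adjustment over all genes tested larger ones could be missed as well.

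The member nearest to the threshold was Hoxb9, a gene of the thoracic level (chr11:96271457-96276595). It received 11, 8 and 10 peaks in epithelium and 15, 15 and 17 in mesenchyme. Its mesenchyme libraries all lay above its epithelium libraries, with a log2 difference of -0.59 (SE 0.23, 95% interval -1.08 to -0.10, adjusted p = 0.325). Hoxb3 received 2, 5 and 5 peaks in epithelium and 5, 7 and 6 in mesenchyme (log2 difference -0.50, SE 0.32, adjusted p = 0.589). Hoxc6, a gene of the trunk, received 4, 5 and 3 against 6, 7 and 5 (-0.45, SE 0.30, adjusted p = 0.611). These 3 were the lowest differences, and each had scaled libraries that did not overlap, in the direction of mesenchyme. That of Hoxb9 was -1.19 when peaks within 5 kb of a start were used, that of Hoxb3 was -0.23 without epithelium replicate 1, and that of Hoxc6 was -0.11 at equal list lengths.

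The 3 highest differences were those of central genes, none of which had libraries apart. Hoxd4 received 1, 4 and 4 peaks in epithelium and 1, 3 and 0 in mesenchyme, with a log2 difference of 0.91 (SE 0.48, adjusted p = 0.490). Hoxc5 received 7, 7 and 8 against 8, 3 and 6 (0.45, SE 0.33, adjusted p = 0.647), and Hoxa4 received 6, 7 and 2 against 2, 4 and 4 (0.44, SE 0.39, adjusted p = 0.717). These sizes were not stable: that of Hoxd4 was 0.05 with the start of the gene record and 0.42 without mesenchyme replicate 3, that of Hoxc5 was 0.07 without mesenchyme replicate 2, and that of Hoxa4 was 0.05 at 5 kb and 0.19 without epithelium replicate 1. Only Hoxc12 had all epithelium libraries above the mesenchyme libraries after scaling, with 6, 8 and 7 against 6, 6 and 7 peaks. Hox genes with libraries apart were therefore 1 of 39 in the direction of epithelium (2.56%, where 6.97% of all genes tested did so) and 3 of 39 in the direction of mesenchyme (7.69%, where 8.93% of all genes did so), and neither share was above the background. At equal list lengths, with each list cut to its widest peaks, as many as the shortest list holds, no member had libraries apart in either direction.

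Summed over a cluster, scaled peaks differed between tissues by less than the spread of the libraries in Hoxa, Hoxd and the whole set. Hoxa had a sum of 50.9 ± 9.0 scaled peaks over the epithelium libraries, against 50.6 ± 4.97 over the mesenchyme libraries (mean ± SD, n = 3 each, exact two-sided permutation p = 1). Hoxb had 70.2 ± 6.33 against 75.2 ± 1.27 (exact permutation p = 0.4), and Hoxc had 56.6 ± 3.73 against 51.6 ± 6.24 (exact permutation p = 0.3). The small lean toward mesenchyme in Hoxb and toward epithelium in Hoxc did not separate the libraries, and that of Hoxb turned to a log2 ratio of 0.042 when peaks were scaled to those of the same chromosome. Hoxd had 32.3 ± 2.67 against 31.3 ± 1.65 (exact permutation p = 0.6). All 39 genes had 210.1 ± 18.8 against 208.7 ± 3.23 (exact permutation p = 0.8), and the adjusted p was 1 for each of the 5 sums.

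By position in the cluster, no sum separated the tissues. The 8 anterior genes (paralog groups 1 to 3) had 40.6 ± 2.70 scaled peaks in epithelium against 45.4 ± 4.64 in mesenchyme (exact two-sided permutation p = 0.2, adjusted 0.45). The 15 central genes (groups 4 to 8) had 74.6 ± 9.04 against 67.4 ± 3.62 (exact permutation p = 0.3, adjusted 0.45), and the 16 posterior genes (groups 9 to 13) had 94.9 ± 10.8 against 95.9 ± 3.48 (exact permutation p = 0.9, adjusted 0.9). Of the anterior genes 2 of 8 had a positive log2 difference, of the central genes 10 of 15, and of the posterior genes 9 of 16.

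The share of each cluster that lay inside peaks brought out one cluster. In Hoxb, 15.5%, 21.4% and 17.0% of the base pairs from the first to the last base of its genes were covered in the epithelium libraries, and 21.5%, 24.8% and 24.0% in the mesenchyme libraries. The mesenchyme libraries lay above all epithelium libraries, the closest pair being 21.4% and 21.5%, with means of 17.9% ± 3.07 and 23.5% ± 1.70 (n = 3 each, exact two-sided permutation p = 0.1, the smallest possible, adjusted 0.4). The whole of chromosome 11 moved the same way: it held 7.01% to 7.07% of all peaks in epithelium and 7.59% to 7.87% in mesenchyme. As a ratio to the share of chromosome 11 covered by peaks, a measure added after the data were seen, Hoxb cover was 2.01, 2.03 and 1.90 in epithelium and 2.17, 2.06 and 2.08 in mesenchyme. With this ratio the libraries still lay apart, by a smaller margin, and the part of the chromosome in the Hoxb difference was not tested. With 20 kb added on each side the cover was 14.4%, 18.9% and 14.7% against 18.7%, 21.5% and 21.2%, and the libraries overlapped.
Hoxa was covered to 23.4%, 30.4% and 22.8% against 26.2%, 29.5% and 33.0% (exact permutation p = 0.3, n = 3 each). At Hoxc the means of both tissues differed by -0.06 percentage points (epithelium minus mesenchyme), with SDs of 0.58 and 0.94 (exact permutation p = 1, n = 3 each). Hoxd was covered to 24.7%, 28.3% and 25.8% against 23.7%, 31.5% and 30.5% (exact permutation p = 0.4, n = 3 each).

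**Figure D4:**
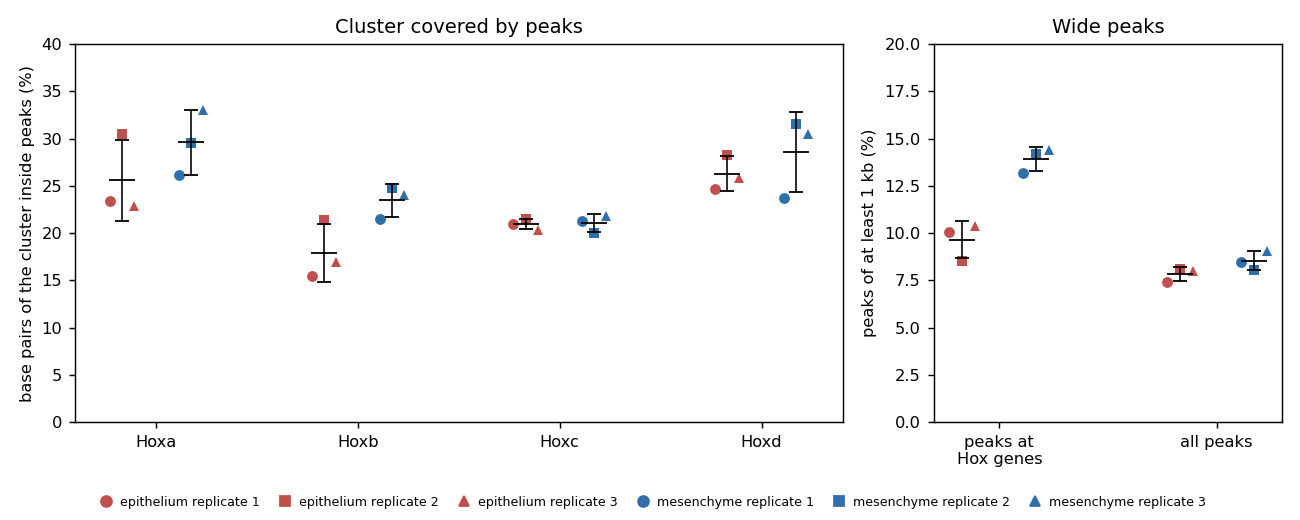
Left, share of base pairs of each cluster inside peaks (%); right, share of peaks of at least 1 kb (%) among peaks at Hox genes and among all peaks; symbols are libraries, horizontal marks means and bars SD (n = 3 per tissue). Hoxb cover and the share of wide Hox peaks were higher in each mesenchyme library than in each epithelium library, while the other groups overlapped.

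The width of Hox peaks was compared next. Of the peaks at Hox genes, 10.1%, 8.55% and 10.4% were at least 1 kb wide in epithelium and 13.2%, 14.2% and 14.4% in mesenchyme. All mesenchyme libraries lay above all epithelium libraries, with means of 9.66% ± 0.98 and 13.9% ± 0.64 (n = 3 each, exact two-sided permutation p = 0.1, the smallest possible). Over all peaks the shares were 7.84% ± 0.35 and 8.54% ± 0.51 and overlapped (exact permutation p = 0.2, n = 3 each). This measure was chosen after the data were seen and carries no independent weight. By cluster the wide peaks summed over 3 libraries numbered 15 in epithelium and 29 in mesenchyme at Hoxa, 11 and 26 at Hoxb, 13 and 11 at Hoxc, and 20 and 23 at Hoxd. At Hoxb2, a hindbrain gene, there were 0 wide peaks in epithelium and 1, 2 and 1 in mesenchyme, and at Hoxb5 there were 0, 1 and 0 against 3, 3 and 0. Without the Hoxb cluster the shares were 11.9% ± 2.28 and 15.4% ± 1.07 and still did not overlap, the closest libraries being at 13.6% and 14.3%. At a width of 750 bp the shares were 16.1%, 17.5% and 23.0% against 20.8%, 23.5% and 24.2%, and the libraries overlapped (exact permutation p = 0.2, n = 3 each).

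**Figure D5:**
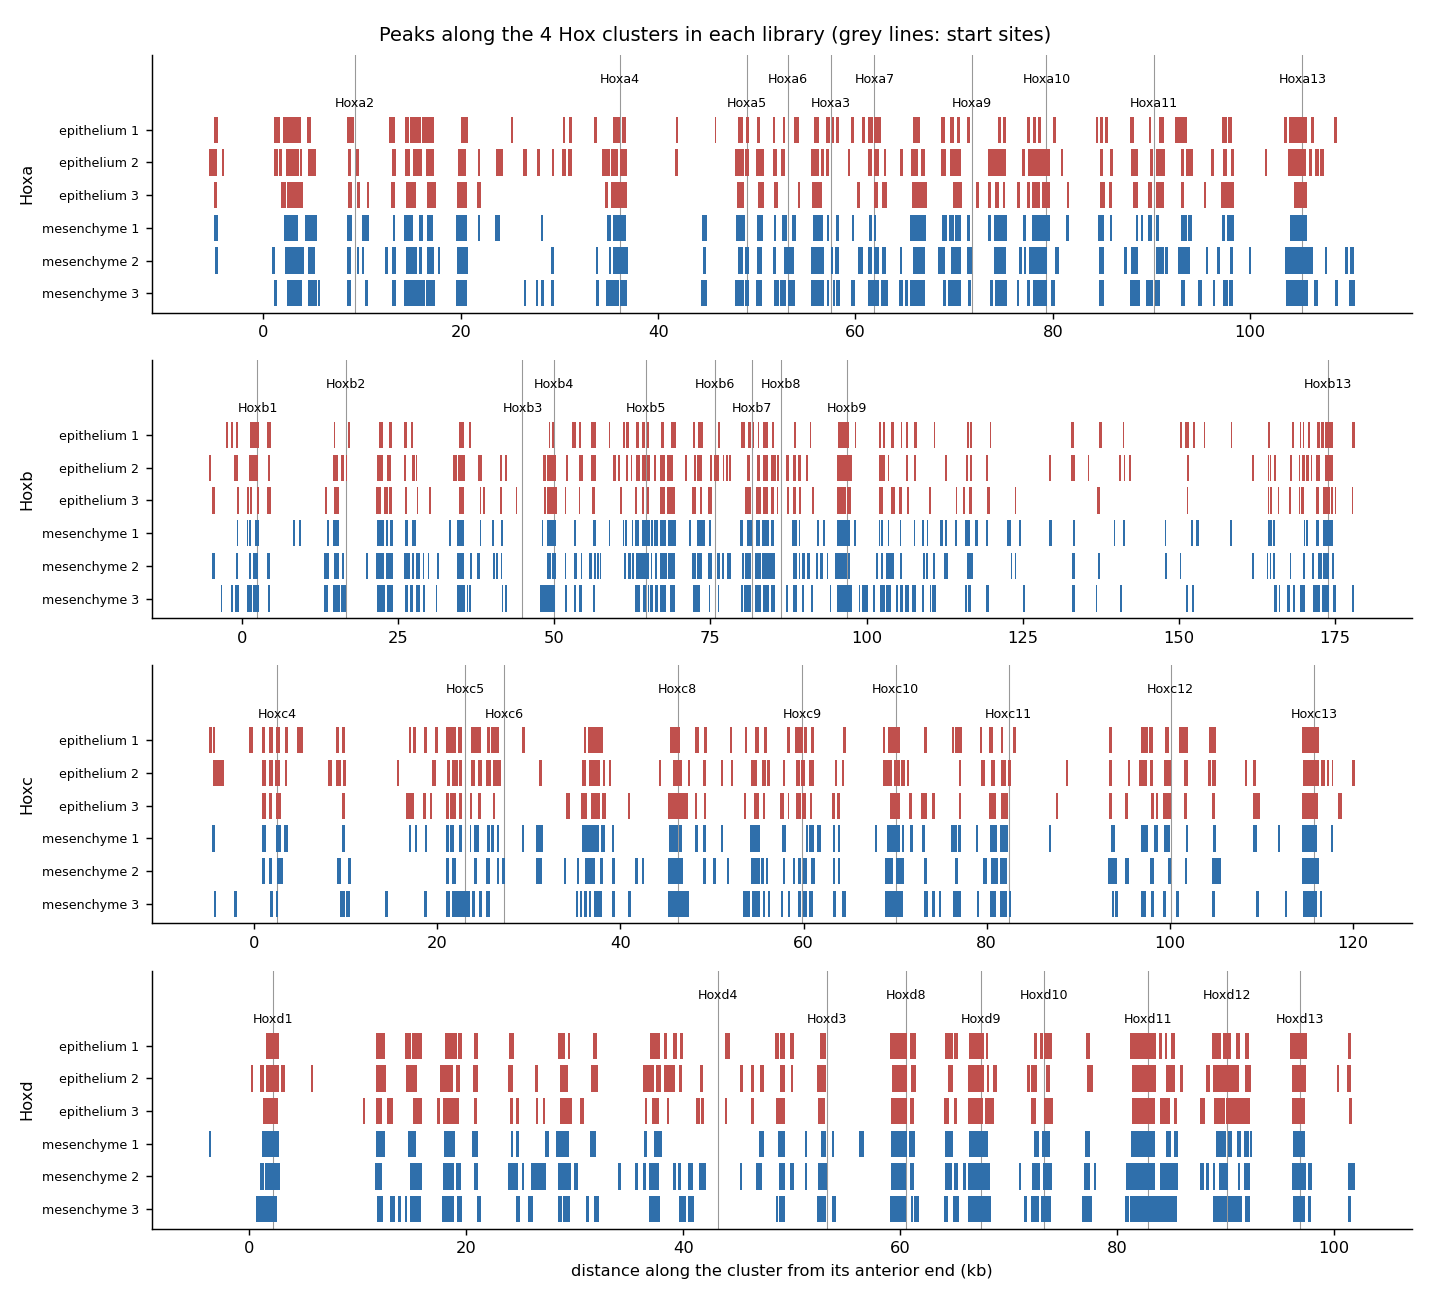
Peaks of each library along the 4 clusters, as boxes drawn to scale against the distance in kb from the anterior end of the cluster; grey lines are principal start sites of the genes named and red and blue rows are epithelium and mesenchyme. Of the 211 regions with a peak in at least 2 rows, 76 have one in all 6, and wide boxes stand at start sites such as those of Hoxa13, Hoxc13, Hoxd9 and Hoxd11.

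When overlapping peaks of the 6 lists were merged, 330 regions were given to Hox genes, of which 211 had a peak in at least 2 libraries. Of these, 76 (36.0%) had one in all 6, against 22.2% of the regions given to any protein-coding gene. The share was 44.9% in Hoxa, 28% in Hoxb, 32.1% in Hoxc and 48.4% in Hoxd. Of the 76 shared regions 28 held a start site, 22 lay between genes, 17 in introns and 9 in exons, with protein-coding genes alone considered. The widest was 4890 bp at Hoxd11, followed by 4044 bp at Hoxb13, 3954 bp at Hoxc5, 3731 bp at Hoxd12 and 3553 bp at Hoxa13. In their central 200 bases the shared Hox regions had a median GC content of 60.8%, and 56.6% had a CpG ratio above 0.6. Over all 65554 regions shared by the 6 libraries these values were 55.5% and 19.7%, and in the 135 Hox regions found in 2 to 5 libraries they were 54% and 18.5%.

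Motif letters in these central 200 bases were sparse. The Hox regions shared by all 6 libraries had a median width of 1381.5 bp, so most of their bases were not searched. Each motif was searched on both strands and counted on its own, so matches of different motifs can overlap. The letters TGATNNAT were found in 8 of the 211 Hox regions (3.79%, against 6.01% of all regions), TAATTA, the homeobox core, in 2 (0.948%, against 2.14%), and TTTATNG, a site of posterior HOX proteins, in 13 (6.16%, against 5.31%). By number of libraries, TTTATNG was found in 8 of the 76 shared Hox regions (10.5%, against 4.16% of all shared regions). In the 135 Hox regions found in 2 to 5 libraries it was in 5 (3.70%, against 5.58% of all such regions). The core of the CTCF site, where a factor that insulates domains in the Hox clusters binds, was found in 1 region (0.474%, against 0.577%). A retinoic acid response element with a spacing of 5 was found in 1 (0.474%, against 0.0875%), a Hoxb1 region with a peak in only 2 libraries. The element with a spacing of 2 was found in 0, against 0.245% of all regions.

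No region at a Hox gene had a peak in all epithelium libraries and none in mesenchyme, where 2.55% of the regions given to any gene did so, and 4 regions (1.90%, where 2.15% did so) had a peak in all mesenchyme libraries and none in epithelium. These shares are not above the background, and they rest on each library: with any 1 left out they became 0 to 5 and 6 to 11, since fewer libraries make the rule easier to meet. The 3 described here lay at Hoxb9, at Hoxa5, a gene of the lung and trachea, and at Hoxa13. None overlapped a start site. Their central 200 bases are shown because these Hox regions separated the tissues, on the plus strand of mm10, with CpG dinucleotides in capitals.
Hoxb9 region (chr11:96259071-96259270): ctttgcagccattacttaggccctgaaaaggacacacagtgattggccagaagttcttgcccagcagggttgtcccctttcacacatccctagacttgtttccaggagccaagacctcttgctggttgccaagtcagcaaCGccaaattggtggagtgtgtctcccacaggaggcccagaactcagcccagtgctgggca
Hoxa5 region (chr6:52200158-52200357): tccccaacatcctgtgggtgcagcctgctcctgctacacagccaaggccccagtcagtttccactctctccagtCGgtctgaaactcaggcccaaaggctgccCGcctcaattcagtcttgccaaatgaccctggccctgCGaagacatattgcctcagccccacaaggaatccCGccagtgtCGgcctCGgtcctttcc
Hoxa13 region (chr6:52266502-52266701): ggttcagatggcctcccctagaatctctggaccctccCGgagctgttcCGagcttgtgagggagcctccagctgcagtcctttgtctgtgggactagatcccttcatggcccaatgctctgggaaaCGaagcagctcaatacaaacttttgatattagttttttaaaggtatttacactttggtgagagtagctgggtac

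The Hoxb9 region (chr11:96258962-96259380) lay between protein-coding genes, inside the record of the non-coding gene Gm53 (chr11:96251105-96264868). Its centre was at -12286 bp from the Hoxb9 start, and its peaks had widths of 331, 254 and 342 bp in mesenchyme. The Hoxa13 region (chr6:52266385-52266819) lay between protein-coding genes at -5722 bp from the Hoxa13 start, beyond the posterior end of the cluster, with widths of 267, 435 and 236 bp. These are narrow peaks, and 199 bp was the smallest width in any list. The Hoxa5 region (chr6:52199942-52200574) lay 4329 bp downstream of the Hoxa5 start in an intron of the Hoxa3 record, with widths of 511, 253 and 583 bp. The central bases held 1, 6 and 3 CpG at Hoxb9, Hoxa5 and Hoxa13, and no match to any of the motifs searched.

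Of 43 non-coding genes that start inside the clusters, 6 had the start inside a peak in all 6 libraries and 17 in none. The 6 included Mir196b, the antisense genes Hoxd3os1 and Gm28793, and Haglr, which shares a promoter region with Hoxd1. Mir196b lies inside the annotated Hoxa9 record, on the side of Hoxa10, and its microRNA targets Hox messages. The long non-coding RNA Hotair, which lies in Hoxc, and the microRNAs Mir10a and Mir196a-1 had a peak over the start in none. Hoxaas3, an antisense gene of the Hoxa cluster, had one in 1 epithelium library and all 3 mesenchyme libraries, and Hotairm1 had one in 2 and 1. For every non-coding gene the start was the first base of its annotated record. Of the 43 records 7 were microRNAs and 16 miscellaneous RNAs, for which this base need not be a promoter.

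Other genes of the Hox system were described by the same counts. Of 9 cofactor genes of the Meis, Pbx and Pknox families 0 passed the test, 5 had a positive difference and the median log2 difference was 0.02. Meis2 had 33, 43 and 22 peaks in epithelium and 25, 23 and 22 in mesenchyme (log2 difference 0.48, SE 0.19, adjusted p = 0.347), and Pbx2 had 2, 2 and 1 against 1 in each (0.42, SE 0.38, adjusted p = 0.721). Of 15 upstream regulators (Cdx, retinoic acid and related genes) 0 passed and 11 were positive, with a median of 0.11. Cdx2, an activator of posterior Hox genes, had 8, 10 and 12 against 8, 6 and 8 peaks (0.45, SE 0.26, adjusted p = 0.537). All 18 Polycomb genes had a peak over the start in all 6 libraries, 0 passed, 9 were positive and the median was -0.02. Ezh1, a Polycomb methyltransferase, had 8, 10 and 5 against 9, 17 and 8 (-0.43, SE 0.28, adjusted p = 0.605).

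Of 19 homeobox genes that are used in the jaw and palate 0 passed and 10 were positive. Their libraries did not overlap for 4 of 19 genes in the direction of epithelium and 3 of 19 in that of mesenchyme, where 6.97% and 8.93% of all genes tested did so, and 13 of 19 had a peak over the start in all 6 libraries. The largest differences were that of Prrx1, at -1.17 (SE 0.28), and that of Alx1, a gene of the frontonasal skeleton, which had 6, 5 and 3 peaks against 1, 3 and 2 (0.99, SE 0.37, adjusted p = 0.300).

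The genes that flank the clusters were described by the same counts. Of 17 neighbours tested 0 passed, and 6 had libraries apart in the direction of mesenchyme. All 5 neighbours of Hoxb were among these 6 (Skap1, Snx11, Cbx1, Ttll6 and Atp5g1), with a median log2 difference of -0.65, against 1 of 6 at Hoxa and none of 3 at Hoxc and 3 at Hoxd. Snx11, a sorting nexin, had 9, 9 and 7 peaks in epithelium and 15, 14 and 17 in mesenchyme (-0.75, SE 0.23, adjusted p = 0.182). Atp5g1, a subunit of the mitochondrial ATP synthase, had 5 in each epithelium library and 8, 11 and 11 in mesenchyme (-0.81, SE 0.26, adjusted p = 0.219). Most Hoxb genes did not share these higher mesenchyme values. Of the 10, 2 had libraries apart in the direction of mesenchyme, while 6 had a positive log2 difference, and the median was 0.03. On chromosome 11 as a whole 15.4% of the genes tested had libraries apart in the direction of mesenchyme, and the median log2 difference was -0.15.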

How the data were processed

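ATAC-seq was analysed from 3 epithelium and 3 mesenchyme libraries. Per the labels and the methods of the study, the authors used Trimmomatic 0.38 for trimming, Bowtie2 for alignment (mm10) and SAMtools for removal of duplicates. They kept short fragments and called peaks with MACS2 2.1.1, one list per library. The peak threshold they used is not given in the sources. The deposited values are peak positions (chromosome, start and end) with no read count, score or p-value, so read depth is unknown and the differential count test of the study could not be run. A longer list can reflect deeper sequencing.

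Genes and principal starts came from GENCODE release M21, and sequence from RefSeq GRCm38.p6, the build of the files. Each peak with its midpoint in a gene body or within 20 kb of a start went once to the nearest start. Peaks per gene were multiplied by the mean list length over that of the library, then tested with limma 3.58.1 in R 4.3.3 on log2(scaled peaks + 1), with a trend, over genes that averaged 1 peak or more. Fold changes on this scale understate those of low genes. Sums and shares over libraries were compared by exact two-sided permutation, which cannot go below p = 0.1 with 3 against 3. A p-value measures only the spread between these libraries. The fit was tested on simulated data. The members, lists and tests were chosen with earlier results of these data known. Named were all members past the threshold, otherwise the 3 highest and 3 lowest differences, members whose libraries did not overlap, those with most and fewest peaks, with no peak over the start, or with a tissue-only region, and, of each list, members past the threshold or otherwise the 2 with the largest difference. Alternatives were other scalings, equal list lengths, other distances, starts, pseudocount and filter, a replicate block and leaving out each library. The 2 neighbours Prac1 and Prac2 were not analysed here, and some items that the rule names are not reported here.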

Additional observations from a re-analysis of the deposited data

How the results depend on the processing

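In all 15 alternatives 0 Hox genes passed the test, whereas the count over all genes, 26, became 0 without scaling, at equal list lengths and without epithelium replicate 2, 7 at 5 kb, 2 without epithelium replicate 1, and 5 without mesenchyme replicate 2 or 3. Whether the replicate numbers pair the samples is not known. Same-numbered libraries had correlations of their deviations from the tissue mean of 0.0209, 0.0277 and -0.0036, against -0.0366 to 0.0128 for other pairs. Replicates 1 and 2 correlated best with their own number, and replicate 3 did not. All these values are near 0, so they cannot tell paired from unpaired samples. With the replicate block 0 Hox genes and 0 genes in all passed (2261 at an unadjusted p under 0.05). The log2 differences of the 7 members named for them kept their sign in all alternatives in which they were tested. That of Hoxb9 ran from -0.38 to -0.76 when single libraries were left out and was -1.19 at 5 kb, that of Hoxd4 ran from 0.42 to 1.37 and was 0.05 with the start of the gene record, that of Hoxc5 ran from 0.07 to 0.74, and that of Hoxa4 ran from 0.19 to 0.87 and was 0.05 at 5 kb. Hoxc5 was not tested with the start of the gene record. The log2 ratios of peak sums by cluster and by position, and of start sites inside a peak, moved by less than 1 SD of the libraries, except that of Hoxb, which became 0.042 when scaled to the peaks of its chromosome. Scaled to the cover of the chromosome, the log2 ratio of cover became -0.085 for Hoxb, 0.166 for Hoxc and 0.101 for Hoxd. That of the share of wide peaks, -0.53, became -0.37 without Hoxb and -0.275 at 750 bp. The cover ratio and the alternatives for wide peaks were chosen after seeing the data. Members with libraries apart toward epithelium numbered 0 without scaling and at equal list lengths and 2 with chromosome scaling, at 5 kb and at 50 kb (1 to 4 when single libraries were left out); toward mesenchyme they numbered 1 without scaling, with chromosome scaling and at 5 kb, and 0 at equal list lengths (3 to 7 when single libraries were left out). Allowing 1 peak in the other tissue gave 1 epithelium-only and 13 mesenchyme-only regions, and leaving out single libraries gave 0 to 5 and 6 to 11. The cause of these changes was not tested, except that fewer libraries or 1 allowed peak make the rules easier to meet. Read depth, which the lists do not hold, limits how firmly an absent peak can be read.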
